A study of Arabidopsis thaliana with 12 samples.

Results

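The 2 genes described here make pigments of the photosynthetic membrane: Z-ISO (AT1G10830) encodes zeta-carotene isomerase of carotenoid synthesis, and CHLM (AT4G25080) encodes magnesium protoporphyrin methyltransferase of chlorophyll synthesis. They are on 2 of the 3439 probes of an array on which Arabidopsis thaliana plants of the psaf antisense line and of the wild type were compared. The members were taken by annotation, as every probe that names exactly 1 gene and whose gene is Z-ISO or CHLM. Each gene was on 1 such probe (probe number 1756 for Z-ISO and 2091 for CHLM), and 0 probes named either gene together with others. The array annotation names 1 gene for 692 probes, several genes for 870, and 1877 probes are unnamed here. The pair was selected on its annotation while the psaf and WT intensities of both probes, and the differences between them, were already known, so those values are described below and not tested.

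The comparison used total RNA on 12 arrays of 1 channel each, 6 of wild type ecotype Columbia 0 (WT) and 6 of psaf, an antisense line in the same ecotype that is without PSI-F, the photosystem I subunit at the lumenal side where plastocyanin docks. The question was how transcript levels differ when this subunit is missing. The labels name neither the promoter of the construct nor the number of independent lines, and they give no tissue, plant age or growth conditions.

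Carotenoids are made in plastids from geranylgeranyl diphosphate. Phytoene synthase joins a pair of these molecules to phytoene, and a chain of desaturases and isomerases turns it into lycopene, from which lutein, beta-carotene and the xanthophylls derive. Z-ISO acts in the middle of this chain: it turns the central cis bond of the zeta-carotene made by phytoene desaturase to trans, which gives zeta-carotene desaturase its substrate. Light can replace part of this isomerisation, so the enzyme matters most in the dark. Chlorophyll is made from glutamate by the tetrapyrrole pathway, which branches at protoporphyrin IX into haem and chlorophyll. CHLM stands just after the branch, where it methylates magnesium protoporphyrin IX with S-adenosylmethionine before the cyclase forms the last ring. Both products end in the same complexes, since photosystem I and its antenna bind chlorophyll and beta-carotene.

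The 12 arrays stood close to each other in pairs: within each genotype arrays 1 and 2, 3 and 4, and 5 and 6 were each other's nearest, and the robust SD of their log2 difference was 0.118 to 0.156, against 0.218 to 0.431 between other arrays of the same genotype and 0.451 to 0.615 between genotypes. A close pair is therefore treated as a single sample, which leaves n = 3 for each genotype in the means ± SD below. Whether arrays or pairs came from separate plants is not labelled, so any p-value here measures the spread between these arrays only, and their number limits the precision. Summed intensity was 3563 to 3745 per array, but the median over all probes was 0.416 to 0.459 for psaf and 0.536 to 0.569 for WT. The median log2 difference of the 3266 tested probes was -0.29, so a value near it lay in the middle of the probes. No probe names PSAF, the antisense target, as its only gene, and a check of the genotype labels by its level was not made. Of 5 green tissue markers the 2 on such a probe, PSAN and LHCB1.5, were among the brightest 6.37% and 1.20% of tested probes on all arrays, and none of 6 markers of seeds, guard cells and senescence was on such a probe. In bulk RNA, fewer cells of a type and less RNA per cell cannot be told apart.

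Z-ISO signal was high in WT and low in psaf. On the WT arrays the intensity was 1.91 at the lowest, 2.32 at the median and 2.71 at the highest. On the psaf arrays it was 0.256 at the lowest, 0.462 at the median and 0.522 at the highest. The genotypes did not overlap, and the dimmest WT array was 1.87 log2 units above the brightest psaf array.

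Averaged over close pairs, Z-ISO was at 2.33 ± 0.367 in WT and 0.417 ± 0.122 in psaf (SD, n = 3 pair means). The log2 difference of psaf minus WT was -2.52 ± 0.30 (plain SE from the pair means), which places the psaf level at 17.5% of WT. CHLM, by contrast, differed by a smaller step. Its intensity on the WT arrays was 0.719 at the lowest, 0.807 at the median and 0.914 at the highest. On the psaf arrays it was 0.481 at the lowest, 0.506 at the median and 0.571 at the highest, so the genotypes again did not overlap, with a gap of 0.33 log2. The CHLM means were 0.805 ± 0.0639 in WT and 0.519 ± 0.0212 in psaf (SD, n = 3), which is -0.63 ± 0.073 in log2 (plain SE from the pair means), or 64.5% of the WT level.

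**Figure D1:**
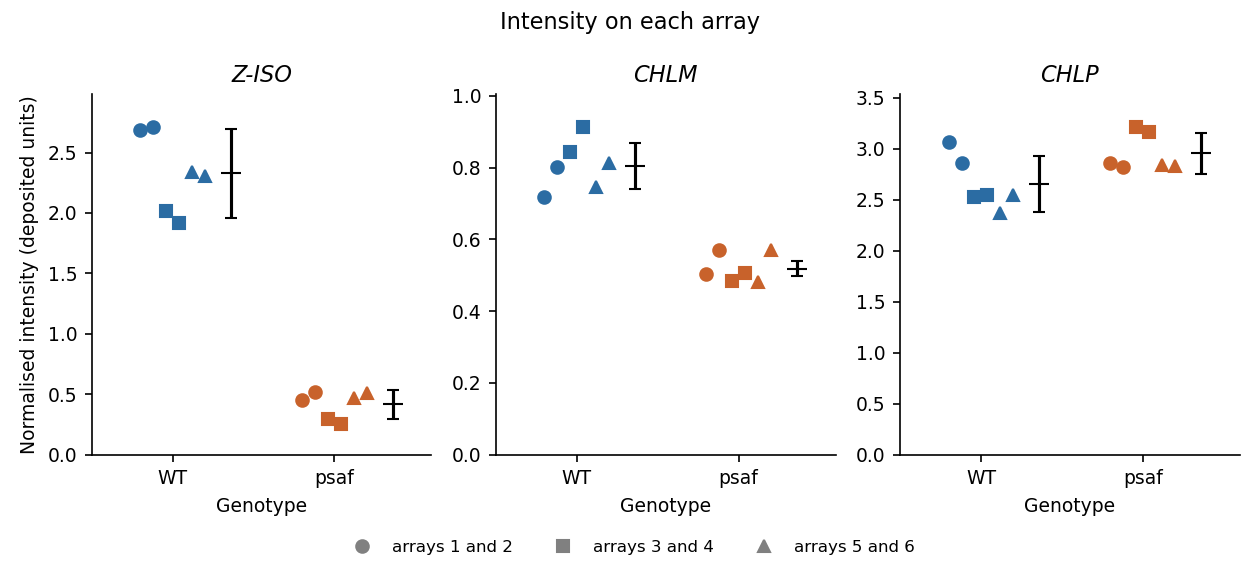
Normalised intensity of Z-ISO, CHLM and CHLP (AT1G74470, described below) on each array, by genotype on the horizontal axis; points are arrays, shapes mark the close pairs, and the bar is the mean ± SD of 3 pair means. All psaf points of Z-ISO lie at or under 0.522 and all WT points at or above 1.91, those of CHLM are parted at 0.571 and 0.719, and those of CHLP overlap.

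Non-overlap of this kind was common on these arrays. Every psaf array lay below every WT array for 35.0% of the 3266 tested probes on the deposited scale, for 13.7% after median centring and for 15.7% after cyclic loess. In limma over the 12 arrays 61.1% of tested probes differed between genotypes at an adjusted p under 0.05, made up of 50.2% lower and 11.0% higher in psaf. That fit takes the arrays as independent; with each close pair averaged, 1271 probes differed, 1114 (34.1%) lower and 157 (4.81%) higher. The balance of the calls over single arrays depended on the scaling, with 359 higher and 1638 lower on the deposited scale, 725 and 854 after quantile normalisation, 926 and 722 after median centring, and 823 and 797 after cyclic loess. The members belong to this same contrast and nothing is read from their place among the calls.

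The 2 differences lay at different places in the distribution over all probes. For Z-ISO 4 of 3266 tested probes had a lower log2 difference, of which 2 were measured on all 12 arrays and neither of these 2 names exactly 1 gene. The remaining pair held AT5G05330, measured on 10 arrays at a mean intensity of 0.0851 on 6 WT arrays and 0.0292 on the 4 psaf arrays above 0, which is the 1 named gene with a lower log2 difference than Z-ISO. Among the 648 named genes measured on all arrays, Z-ISO had the lowest log2 difference. For CHLM 758 of the 3266 tested probes, or 23.2%, had a lower log2 difference, as did 147 of the 649 named ones.

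The same 2 differences were also placed among probes of similar brightness, which is no separate support. With the tested probes split into 10 classes of equal size by mean log2 intensity, Z-ISO stood in class 8 counted from the dimmest, where the median log2 difference was -0.26 and the quartiles were -0.52 and 0.023. In that class 1 of 327 probes was lower than Z-ISO. CHLM stood in class 7, with a median of -0.32 and quartiles of -0.63 and 0.047, so that CHLM lay at the lower quartile and 81 of 326 probes were lower. Relative to the median of all tested probes, Z-ISO was at -2.22 and CHLM at -0.34.

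**Figure D2:**
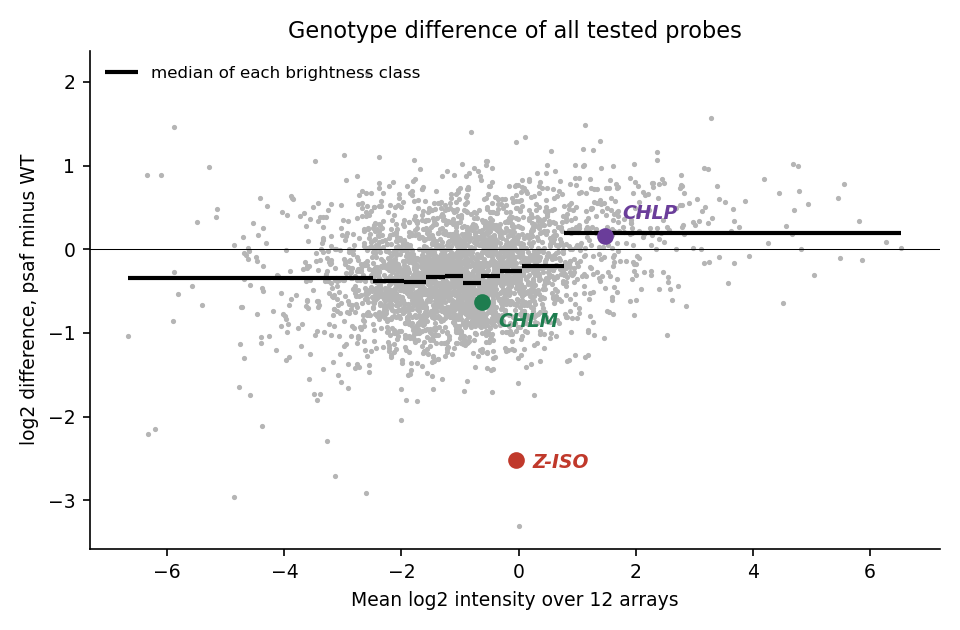
Log2 difference of psaf minus WT (vertical axis) against mean log2 intensity over the 12 arrays (horizontal axis) for the 3266 tested probes in grey, with Z-ISO, CHLM and CHLP in colour and the median of each of 10 brightness classes as black lines. Z-ISO at -2.52 lies far under its class median of -0.26, CHLM at -0.63 lies within the bulk of the probes at its class's lower quartile, and CHLP at 0.16 lies beside its class median of 0.19.

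The rank of a probe's signal within its own array does not move when an array is scaled by any monotone rule, and it ranks probe signal, not transcript amount, because probes differ in length and hybridisation. On WT arrays Z-ISO ranked 187 at the brightest, 230 at the median and 322 at the dimmest, within the top 5.73% to 9.87% of tested probes. On psaf arrays it ranked 1442 at the brightest, 1628.5 at the median and 2439 at the dimmest, within the top 44.2% to 74.9%. The probe thus stood far up the WT arrays and near or below the middle of the psaf arrays, with no overlap of ranks. How many of all tested probes likewise had no overlap of ranks was not counted.

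CHLM moved less in rank. It ranked from 980 to 1278 on WT arrays, with a median of 1137, and from 1257 to 1559 on psaf arrays, with a median of 1486. In percent, CHLM was within the top 30.0% to 39.1% in WT and the top 38.5% to 47.7% in psaf. The ranks of the 2 genotypes overlapped here, as psaf array 6 at 1257 stood above WT arrays 1 and 5 at 1277 and 1278, although the intensities did not overlap. By mean intensity over the arrays of a genotype, Z-ISO was in place 225 of the 3266 tested probes in WT and 1790 in psaf, and CHLM in place 1150 and 1441. Among the 649 tested probes naming 1 gene, these places were 36 and 338 for Z-ISO and 215 and 267 for CHLM.

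**Figure D3:**
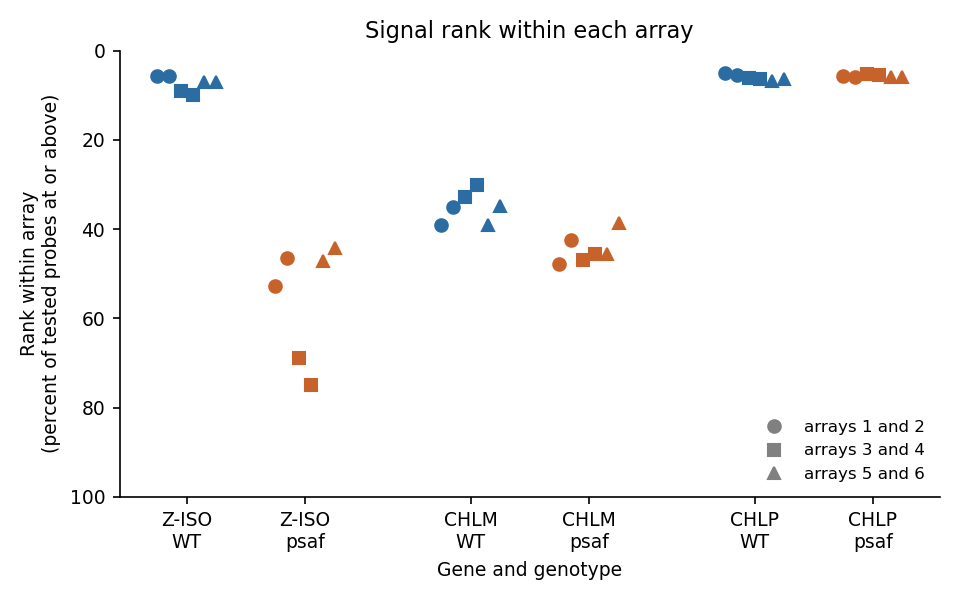
Signal rank of Z-ISO, CHLM and CHLP within each array, as the percent of tested probes at or above it (vertical axis, brightest at the top), by gene and genotype; points are arrays and shapes mark the close pairs. Z-ISO goes from 5.73% to 9.87% in WT to 44.2% to 74.9% in psaf, the CHLM ranks of the genotypes overlap, and CHLP stays between 4.93% and 6.80% on all arrays.

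The ratio of both probes within an array is free of any factor common to that array. It shows unequal change of the 2 probes and not which of the 2 transcripts is more abundant. The log2 ratio of Z-ISO over CHLM was 1.07 at the lowest, 1.58 at the median and 1.90 at the highest on WT arrays. On psaf arrays it was -0.98 at the lowest, -0.16 at the median and -0.04 at the highest, so all psaf arrays lay below all WT arrays. How often the ratios of other probes part the genotypes in this way was not counted. Over pair means the log2 ratio of Z-ISO over CHLM was 1.52 ± 0.34 in WT and -0.36 ± 0.41 in psaf (SD, n = 3), a difference of -1.88 ± 0.31 (plain SE from the pair means). The Z-ISO probe was thus lower in psaf by this much more than the CHLM probe.

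How far the members varied among arrays of 1 genotype also differed. The pair means of Z-ISO in WT were 2.70 for arrays 1 and 2, 1.96 for arrays 3 and 4, and 2.32 for arrays 5 and 6. In psaf they were 0.488, 0.277 and 0.487 in the same order. Arrays 3 and 4 were thus the lowest pair in both genotypes. The labels do not tie equal array numbers to shared plants or days; over all tested probes, the deviations from genotype means correlated by 0.18 between WT and psaf array 3 and by 0.19 between WT and psaf array 4. The coefficient of variation of Z-ISO over pair means was 15.8% in WT and 29.2% in psaf. The 2 arrays of a close pair differed by 0.016 to 0.073 log2 in WT and by 0.11 to 0.22 in psaf, while the pair means spanned 0.46 and 0.82 log2.

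CHLM was steadier between pairs, with pair means of 0.759, 0.878 and 0.779 in WT and 0.537, 0.495 and 0.524 in psaf. Its coefficient of variation was 7.93% in WT and 4.09% in psaf. Here WT arrays 3 and 4 were the highest pair and psaf arrays 3 and 4 the lowest. Within a close pair CHLM differed by 0.12 to 0.16 log2 in WT and 0.069 to 0.25 in psaf, and its pair means spanned 0.21 and 0.12 log2. Arrays of 1 pair thus lay as far apart for CHLM as different pairs did in psaf. For Z-ISO they lay closer together than different pairs in WT. In psaf this held only against arrays 3 and 4, as the Z-ISO means of the other pairs, 0.488 and 0.487, were nearly equal.

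As a proportion of each difference, the scaling of the arrays bore more on CHLM than on Z-ISO. The Z-ISO difference was -2.33 after quantile normalisation, -2.16 after median centring and -2.23 after cyclic loess, against -2.52 on the deposited scale. The CHLM difference was -0.30, -0.28 and -0.27 under the same 3 scalings, against -0.63 on the deposited scale. The deposited-scale value of CHLM was thus more than halved on the log2 scale by each of them. The median tested probe differed by -0.29 on the deposited scale. Whether a shift shared by all probes made up part of the CHLM difference was not tested. With close pairs averaged, limma's moderated SE of the CHLM difference was 0.11 after quantile normalisation, 0.11 after median centring and 0.10 after cyclic loess.

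**Figure D4:**
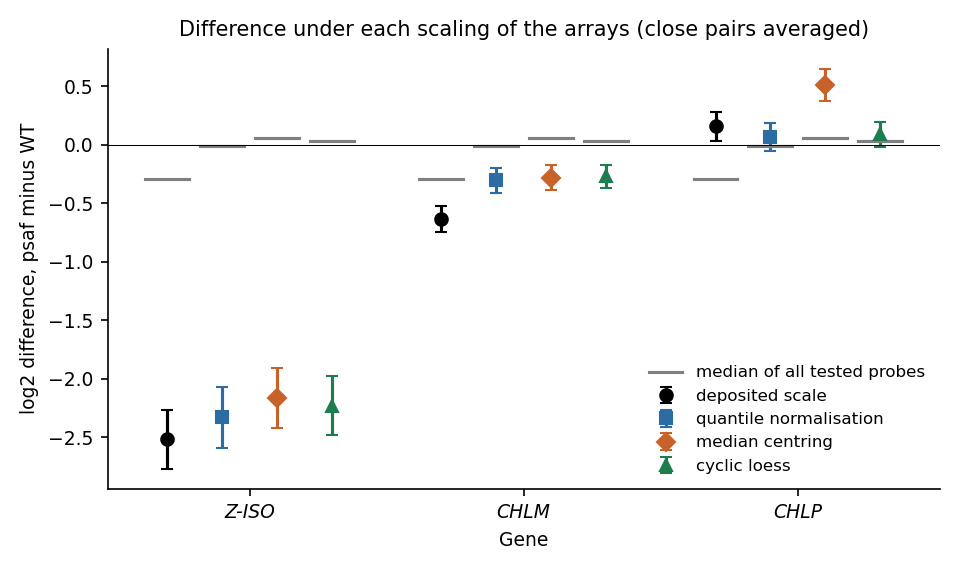
Log2 difference of psaf minus WT (vertical axis) for Z-ISO, CHLM and CHLP under 4 scalings of the arrays with close pairs averaged; bars are the moderated SE of the limma fit and grey lines the median of all tested probes under that scaling. Z-ISO stays between -2.52 and -2.16, CHLM goes from -0.63 to between -0.30 and -0.27, and CHLP runs from 0.068 to 0.51.

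The rest of the pigment pathways was thinly represented. Of 22 genes of carotenoid synthesis and cleavage, Z-ISO was the 1 on a probe naming exactly 1 gene. Of 32 tetrapyrrole genes 2 were on such probes, CHLM and AT1G74470 (annotated as geranylgeranyl reductase and called CHLP here), and 3 more were on probes naming several genes and are not reported by name. None of 10 genes of isoprenoid precursor synthesis, 6 of chlorophyll breakdown and 6 regulators of greening was on a probe naming exactly 1 gene. Beside the member CHLM, whose difference is described above without a test, CHLP was thus the 1 tetrapyrrole gene left to test.

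CHLP reduces the geranylgeranyl chain to the phytyl tail of chlorophyll and of tocopherols. Its intensity on WT arrays was 2.37 at the lowest, 2.55 at the median and 3.07 at the highest. On psaf arrays it was 2.82 at the lowest, 2.85 at the median and 3.21 at the highest, within reach of the brightest WT arrays. The means were 2.65 ± 0.272 in WT and 2.95 ± 0.203 in psaf (SD, n = 3), which is 0.16 ± 0.10 in log2 (plain SE from the pair means). It did not pass in limma over the 12 arrays (unadjusted p = 0.0539, adjusted p = 0.0829) or over pair means (adjusted p = 0.336). After median centring the CHLP difference was 0.51 and passed (limma adjusted p = 3.92e-04 with single arrays and 0.0404 with pairs averaged), whereas cyclic loess gave 0.089 and quantile normalisation 0.068 (limma adjusted p = 0.265 and 0.463 over 12 arrays). Of the WT arrays, 1 and 2 read highest for CHLP, at 3.07 and 2.86, and without both the difference was 0.24 and passed (limma adjusted p = 0.00968). Its rank within the arrays lay between 161 and 222 in WT and between 171 and 190 in psaf.

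NTRC (AT2G41680), the plastid NADPH-dependent thioredoxin reductase known to keep CHLM reduced and active, is on probe number 1759, 3 numbers from Z-ISO. The WT arrays read 0.508 to 0.788 and the psaf arrays 0.404 to 0.599, which overlap. The NTRC difference of -0.30 lay at the median of all probes (limma adjusted p = 0.0477 with single arrays and 0.169 with pairs averaged), and it was 0.051 after median centring.

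Probes with numbers near a member's can share a position on the array, which the labels do not give. Of the 8 tested probes nearest in number to Z-ISO, 4 on either side, 6 were lower and 2 higher in psaf in limma over the 12 arrays (adjusted p under 0.05), at log2 differences from -0.70 to 0.85 with a median of -0.31. All of these lay well above the Z-ISO value of -2.52. The probe next to it, number 1755, read 0.888 ± 0.0481 in WT and 0.616 ± 0.0643 in psaf, and on the other side number 1757 read 7.63 ± 1.21 and 9.68 ± 1.82 (SD, n = 3). GLX2-1, the glyoxalase gene on number 1753, was at 0.228 ± 0.0324 and 0.144 ± 0.0397. Around CHLM 4 of 8 probes were lower and 1 was higher, from -1.59 to 0.60 with a median of -0.37. Number 2090, beside CHLM, read 0.722 ± 0.0446 in WT and 0.403 ± 0.0371 in psaf, a log2 difference of -0.85, and number 2095 differed by -1.59. A correction by the 4 nearest probe numbers gave -2.56 for Z-ISO and -0.60 for CHLM. It removed only what neighbours shared among arrays of 1 genotype and left their difference between genotypes in place. The median log2 difference of all tested probes was still -0.32 after it, against -0.29 before. These values therefore cannot show whether array position added to either difference.

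Likeness of pattern was measured as the root-mean-square difference of log2 intensity over the 12 arrays, each probe taken relative to its own WT mean, among the 647 other genes on single-gene probes measured on all arrays. The measure holds the genotype difference and the close pairs of arrays within it, so it groups genes by the size of that difference. The gene nearest to Z-ISO was AT3G52550 at 0.80, followed by AT5G52660 at 0.82, AT2G37580 at 0.84, AT1G25500 at 0.85 and AT5G06930 at 0.88, where the median over all genes was 1.59. None came close, because their log2 differences were -1.47 to -1.38 against -2.52 for Z-ISO. AT3G52550 read 0.988 ± 0.213 in WT and 0.374 ± 0.0817 in psaf (SD, n = 3).

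CHLM had close company. Its nearest gene was AT1G77730 at a root-mean-square difference of 0.10 log2, with AT1G15410, AT3G23940, AT2G14660 and AT1G62010 at 0.11 to 0.12, against a median of 0.35 over all genes. AT1G77730 read 0.783 ± 0.0606 in WT and 0.526 ± 0.0336 in psaf, and the 5 genes differed by -0.71 to -0.50 log2.

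With each genotype's mean taken out and the arrays averaged to 6 pair means, the measure holds only the spread between pairs. The nearest to Z-ISO were then AT3G46950 at 0.071 log2, AT2G36480 at 0.083, AT3G52550 at 0.090, AT4G13200 at 0.097 and AT4G05030 at 0.11, against a median of 0.35. AT3G52550 was near Z-ISO by both measures, and its genotype difference was -1.41, whereas AT3G46950 and AT2G36480 differed by -0.32 and -0.16. AT3G46950 and AT2G36480 are on the adjoining probe numbers 3755 and 3754. For CHLM the nearest were AT4G34310 at 0.019 log2, AT3G23940 at 0.030, AT5G02710 at 0.034, AT5G10910 at 0.035 and AT3G32940 at 0.041, against a median of 0.15. AT4G34310 is on probe number 2079, not far from CHLM on 2091. AT3G23940 was near CHLM by both measures, at 1.24 ± 0.0983 in WT and 0.879 ± 0.0451 in psaf.

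**Figure D5:**
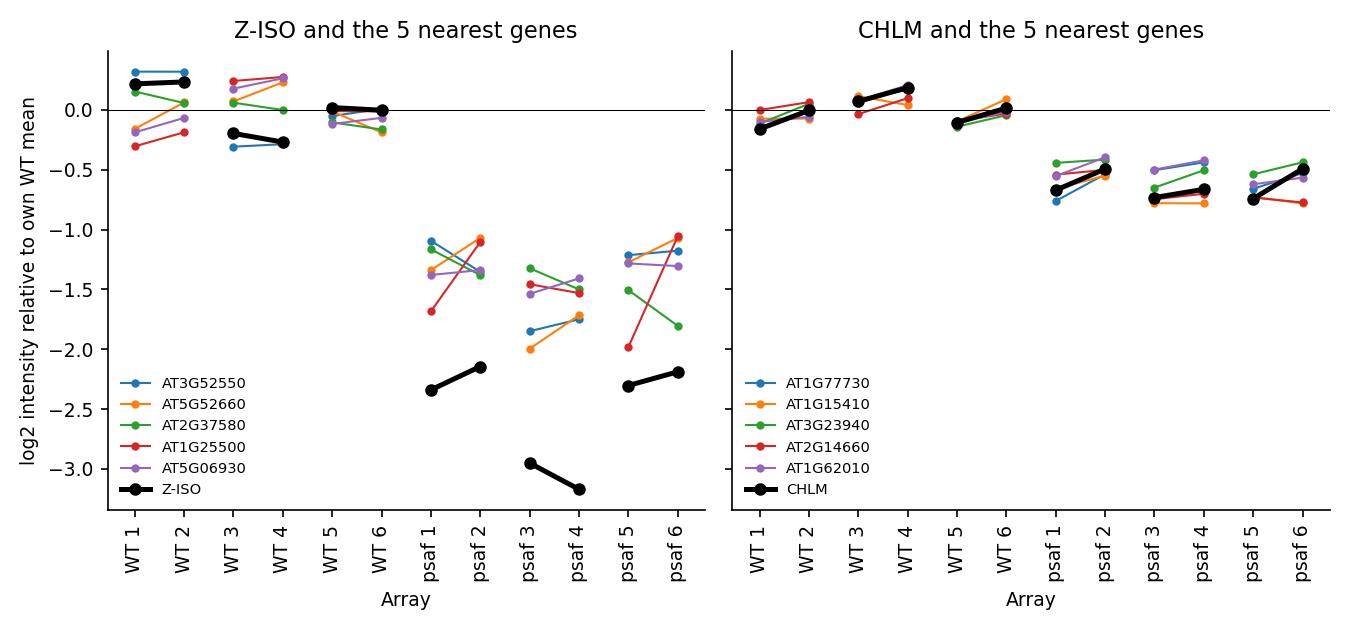
Log2 intensity relative to each gene's own WT mean (vertical axis) on the 12 arrays (horizontal axis) for Z-ISO and CHLM in black and the 5 genes most like each in colour; lines join the arrays of a close pair. Z-ISO lies below its 5 nearest genes on every psaf array and lowest on arrays 3 and 4, while CHLM runs among its 5 nearest genes.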

How the data were processed

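The authors' deposited table holds linear intensity values, 1 for each of 3439 probes on each of 12 arrays, between 0 and a ceiling of 100. The labels do not state how the authors scanned, corrected or normalised these intensity values. They were taken as normalised, since array totals were nearly equal. Values of 0 (4.45% to 5.18% per array) were treated as not measured, and 3266 probes with at least 4 measured arrays per genotype were tested. The test was limma 3.58.1 (R 4.3.3; lmFit, then eBayes) on log2 intensities with a genotype term alone; p-values were two-sided and adjusted by Benjamini-Hochberg over all tested probes, at a threshold of 0.05. The fit was tried on simulated data with known differences. All arrays were drawn independently there, without close pairs, so that trial cannot show how the fit behaves with such pairs. Close pairs were found as mutually nearest arrays within a genotype, and means ± SD are over the geometric means of pairs. Genes were named from the platform annotation. RefSeq, assembly TAIR10.1, supplied symbols for 690 of 692 single-gene probes; no coordinates or sequences are printed. Named genes were Z-ISO and CHLM, the 5 genes most like each by 2 measures, tested genes of 5 pathway lists, and 4 probe numbers on either side. Members and lists were chosen with earlier results of these data known. Alternatives were 3 other scalings, an offset, filters on low values, averaged pairs, array weights, other tests, the replicate number as a block, neighbouring probes, and arrays or pairs left out. Averaged pairs combined with other scalings, and the alternatives for CHLP, were added after seeing the data. Replicate numbers were not used to pair the arrays in the main fit, since the labels do not tie equal numbers. Deviations from genotype means correlated by 0.022 to 0.26 between WT and psaf arrays of equal number, over 0.1 for 4 of 6 numbers. Whether arrays of equal number shared a source was not tested.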

Additional observations from a re-analysis of the deposited data

How the results depend on the processing

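The Z-ISO difference kept its sign under every alternative run, from -2.65 to -2.16. It stayed within 1 SD between pair means of -2.52. That SD was 0.37 log2 for Z-ISO and 0.090 for CHLM, so an equal move can lie within it for Z-ISO and beyond it for CHLM. Alternatives that change only the variance model, the test, the threshold, the probes kept or the averaging of pairs cannot move the Z-ISO or CHLM difference. Their unchanged values are therefore no support. The correction by neighbouring probes kept the neighbours' genotype difference, so its values are no support against an effect of array position. Without single arrays the Z-ISO difference was -2.59 to -2.39 and without a close pair -2.65 to -2.24, the smallest without psaf arrays 3 and 4. The CHLM difference of -0.63 kept its sign. It moved by more than its SD of 0.090 under quantile normalisation (-0.30), median centring (-0.28) and cyclic loess (-0.27). The same 3 with pairs averaged gave the same values. The offset of 0.106 before log2, with zeros left out or kept, gave -0.54, a move about equal to that SD. An added offset makes log2 differences smaller by arithmetic, and median centring takes out each array's own median. Why quantile normalisation and cyclic loess moved the CHLM difference was not tested. Without single arrays the CHLM difference was -0.66 to -0.60, and without a close pair -0.67 to -0.57. The ratio of Z-ISO over CHLM differed by -1.97 to -1.76 without single arrays and by -2.06 to -1.64 without a pair. The count of 1997 probes differing between genotypes was 1892 to 1973 without single arrays and 1783 to 2073 without a close pair. It was 1271 with close pairs averaged, where fewer values per genotype enter the fit. With pairs averaged and the same number of values, it was 707 after quantile normalisation, 758 after median centring and 762 after cyclic loess. With the replicate number as a block the count was 2148. A block cannot move the Z-ISO and CHLM differences, since each number is on 1 array per genotype, so these stayed at -2.52 and -0.63. No call named in the text for CHLP changed with the block (limma adjusted p = 0.102). CHLP also passed with array weights (0.18, limma adjusted p = 0.0331) and without WT array 1 (0.20, adjusted p = 0.0267). Ranks within an array stayed within the spread between arrays whichever probes were ranked. The depth behind an intensity is unknown, and no signal over background is given.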
